A study of Mus musculus with 6 samples.

Results

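Notch signalling was described here through 10 genes, Notch1 to Notch4, Jag1, Jag2, Dll1, Dll4, Hes1 and Hey1, which were chosen by symbol as its receptors, ligands and targets. All 10 were found among the 20126 named genes of the authors' normalized table. RNA had been taken from whole first molar tooth germs of C57BL/6 mice at postnatal day 7, from wild-type (WT) animals and from littermates of genotype Gpr115-/- (Gpr115-KO), with 3 libraries per genotype and no treatment. Gpr115, also named Adgrf4, is an adhesion G-protein-coupled receptor, and the series asks about its part in enamel mineralization by ameloblasts, the enamel-secreting epithelial cells. The labels do not describe the deleted allele or say whether a library came from 1 animal, so the spread behind each p-value is that between libraries and may be technical.

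Notch receptors are single-pass membrane proteins that bind Jagged or Delta-like ligands on a neighbouring cell. Binding and ligand endocytosis expose the receptor to cleavage by ADAM proteases and then by the gamma-secretase complex. The freed intracellular domain enters the nucleus, joins the DNA-binding protein RBPJ and a Mastermind co-activator, and turns on genes that include the Hes and Hey repressors. In the enamel organ, Notch1 is known from the stratum intermedium, the cell layer that lies against the ameloblasts, while Notch4 and Dll4 are known from endothelium and Notch3 from the mural cells of vessels. A whole germ holds all of these cells, and in such bulk samples fewer cells of a type and less RNA per cell cannot be told apart.

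The promoters of the 4 receptors are shown because the levels of these genes lie far apart. Each line gives the 250 bases before the RefSeq start (GRCm38.p6), 5′ to 3′ on the gene's strand, with CG dinucleotides in capitals. The windows are chr2:26503823-26504072 (minus strand) for Notch1, chr3:98013288-98013537 (plus) for Notch2, chr17:32166891-32167140 (minus) for Notch3 and chr17:34564045-34564294 (plus) for Notch4.
Notch1: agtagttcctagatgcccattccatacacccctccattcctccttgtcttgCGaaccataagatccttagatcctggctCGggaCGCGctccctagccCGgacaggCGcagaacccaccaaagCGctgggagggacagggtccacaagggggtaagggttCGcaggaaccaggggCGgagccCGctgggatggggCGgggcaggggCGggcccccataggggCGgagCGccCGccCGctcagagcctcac
Notch2: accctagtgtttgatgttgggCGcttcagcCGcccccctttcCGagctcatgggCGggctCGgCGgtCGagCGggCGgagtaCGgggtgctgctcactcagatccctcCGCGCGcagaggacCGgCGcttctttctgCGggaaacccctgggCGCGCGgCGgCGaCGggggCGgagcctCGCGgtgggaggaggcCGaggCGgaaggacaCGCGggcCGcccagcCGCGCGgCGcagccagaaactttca
Notch3: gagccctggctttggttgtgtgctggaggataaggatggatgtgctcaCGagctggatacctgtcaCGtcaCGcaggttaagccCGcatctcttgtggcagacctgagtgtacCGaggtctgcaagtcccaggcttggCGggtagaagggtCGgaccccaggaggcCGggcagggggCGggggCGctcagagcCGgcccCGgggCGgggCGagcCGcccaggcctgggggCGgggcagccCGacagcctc
Notch4: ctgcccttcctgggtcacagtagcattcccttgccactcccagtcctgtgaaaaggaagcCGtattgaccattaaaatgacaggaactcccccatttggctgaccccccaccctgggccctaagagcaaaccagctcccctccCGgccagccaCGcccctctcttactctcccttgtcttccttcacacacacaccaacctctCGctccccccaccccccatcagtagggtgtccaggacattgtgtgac

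The Notch2 window held 34 CG dinucleotides, more than 96.5% of the 32817 RefSeq promoter windows of this length, whose median was 6. Notch1 held 16 (more than 74.6% of windows) and Notch3 held 17 (more than 76.5%). Notch4, the receptor with the lowest RNA level, held 4, more than 37.8% of windows. The number did not follow the RNA level over all genes shown here: Notch3 held 1 more than Notch1 at a lower level. Among the ligands Jag2 held 54 and Jag1, far more abundant, held 20. All 250 bases of the Jag2 window and 124 of the Jag1 window overlap annotated exons of the same gene, so these are not purely upstream sequence. The same holds for 153 bases of a Dll1 window, 27 of the Notch4 window, 11 of Notch2 and 2 of Notch1. The GENCODE span of Notch1 (chr2:26457903-26516663, minus strand) reaches upstream of this RefSeq start, so the Notch1 window lies inside that span. In all, 8 of the 10 genes matched the promoter table, with 9 windows, and Hes1 and Hey1 did not. The core of the RBPJ site, TGGGAA on either strand, was in 0 of the 9 windows and in 21.6% of all windows. The E-box CACGTG, a palindrome that Hes and Hey factors can bind, was in 0 of the 9 and in 6.02% of all.

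Library totals ran from 8317302 to 11122821 counts over all genes, so that 1 count was worth 0.0904 to 0.114 CPM (counts per 1e+06 counts of the TMM-scaled library) and 3 counts, taken as the floor, 0.271 to 0.341 CPM. Adgrf4 itself was at 66.9, 62.3 and 67.3 CPM in the WT libraries and at 39.1, 20.6 and 27.4 CPM in the Gpr115-KO libraries. Its libraries did not overlap and went the way the labels say, with a log2 fold change of -1.18 (SE 0.214) by edgeR, at an adjusted p of 0.0889. Which part of the gene the remaining reads cover is not shown by gene counts. Defining markers of the labelled tissue were present in every library, among them Amelx, the main enamel matrix gene, at 20707 to 45866 CPM. Summed CPM of the ameloblast markers (7 genes) was 112733 to 145676 in WT and 96111 to 203024 in Gpr115-KO, that of the dental epithelium markers (7) 1404 to 1514 and 920 to 1967, and that of the odontoblast and pulp markers (7) 43063 to 92600 and 47650 to 80283. None of the 9 marker lists used here had a gene called at an adjusted p under 0.05.

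Per kilobase of exon, the WT level fell into a steep order that was led by 1 ligand and 1 receptor. Jag1, the Jagged ligand, stood first at 152 ± 3.80 CPM per kilobase (SD, n = 3), and Notch2 second at 117 ± 25.6. Hey1, a Hairy-related repressor and target, followed at 7.62 ± 1.30, and Notch1 at 2.07 ± 0.873. Hes1, the other target, was at 1.56 ± 0.436 and Jag2 at 1.13 ± 0.272. Notch3 (0.736 ± 0.257), Dll4 (0.721 ± 0.202) and Dll1 (0.665 ± 0.191) lay together, and Notch4 came last at 0.0847 ± 0.0446 CPM per kilobase. The WT libraries of neighbouring genes did not overlap between Jag1 and Notch2, Notch2 and Hey1, Hey1 and Notch1, or Dll1 and Notch4. They overlapped for every neighbouring pair from Notch1 down to Dll1, so the order of neighbours within that stretch is not resolved. Farther apart in it, the WT libraries of Notch1 (1.19 to 2.94) and Hes1 (1.07 to 1.89) all lay above those of Notch3, Dll4 and Dll1 (at most 1.02). Using the longest coding transcript as the length changed the order only among Notch3, Dll4 and Dll1.

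**Figure D1:**
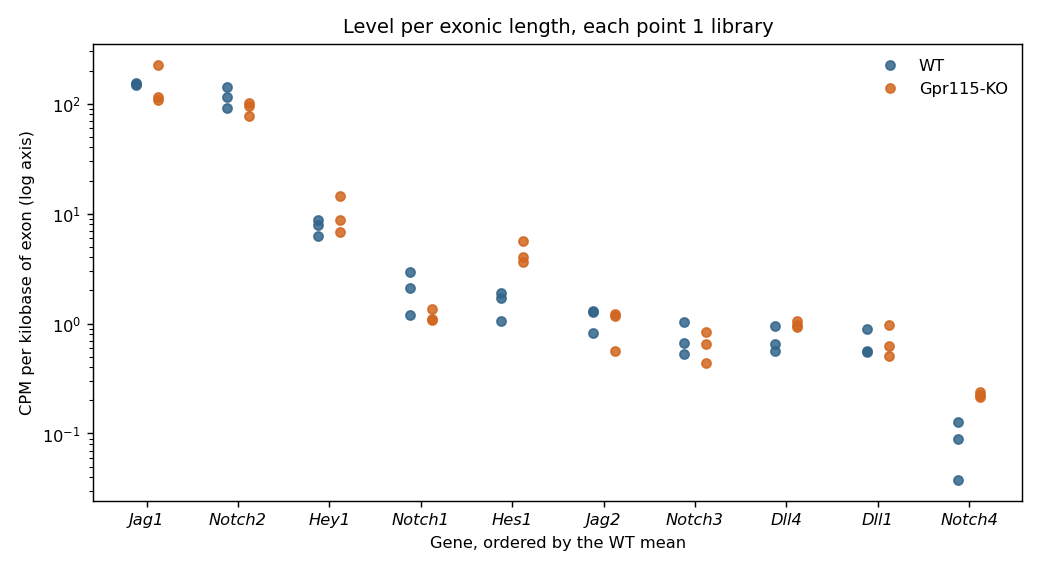
Level of each gene in CPM per kilobase of exon (log axis), ordered by the WT mean, with 1 point per library. Jag1 and Notch2 lie more than 10-fold above Hey1 in the WT mean, and Notch4 lies below all others in the libraries of both genotypes.

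A single gene made up nearly all of the receptor level, and another nearly all of the ligand level, in every library. Notch2 made up 97.3% to 98.1% of the summed per-length level of the 4 receptors in the 6 libraries, Notch1 1.04% to 2.0% and Notch3 0.446% to 1.054%. Jag1 made up 97.6% to 98.8% of the 4 ligands. The targets were divided less steadily. Hes1 held 14.6%, 18.1% and 17.7% of the summed level of Hes1 and Hey1 in the WT libraries, and 37.1%, 38.8% and 20.4% in the Gpr115-KO libraries. The last of these, from replicate 3, lay near the WT values and was the library with the highest Hey1.

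The comparison of genotypes asks whether Notch signalling genes differed when Gpr115 was lost. All 10 genes passed the count filter and none was called by edgeR's quasi-likelihood test at an adjusted p under 0.05, with 5 log2 fold changes above 0, 5 below, and a median of 0.04. Over all 16011 genes tested, 24 were called (0.15%), the median was 0.01, 8211 lay above 0 and 7800 below. At an unadjusted p under 0.05 there were 3 of the 10, Hes1, Notch4 and Notch1, where all genes gave 12.3%. The 24 called genes were 6 higher (0.0375%) and 18 lower (0.112%). The libraries of the genotypes did not overlap for Hes1 and Notch4, that is 2 of 10, both higher in Gpr115-KO, where all genes gave 17.5% (8.55% higher and 8.99% lower). Notch4 reached the minimum of the count filter in 1 WT library and in all 3 Gpr115-KO libraries, so it passed through the genotype in which it is high. The filter thus favoured its difference, and neither count is read as support. DESeq2 called 1 of the 10, Hes1, beside 1.58% of all genes, and both limma fits called 0. Without the count filter edgeR called 2, Hes1 and Notch1, beside 1.71% of all genes.

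**Figure D2:**
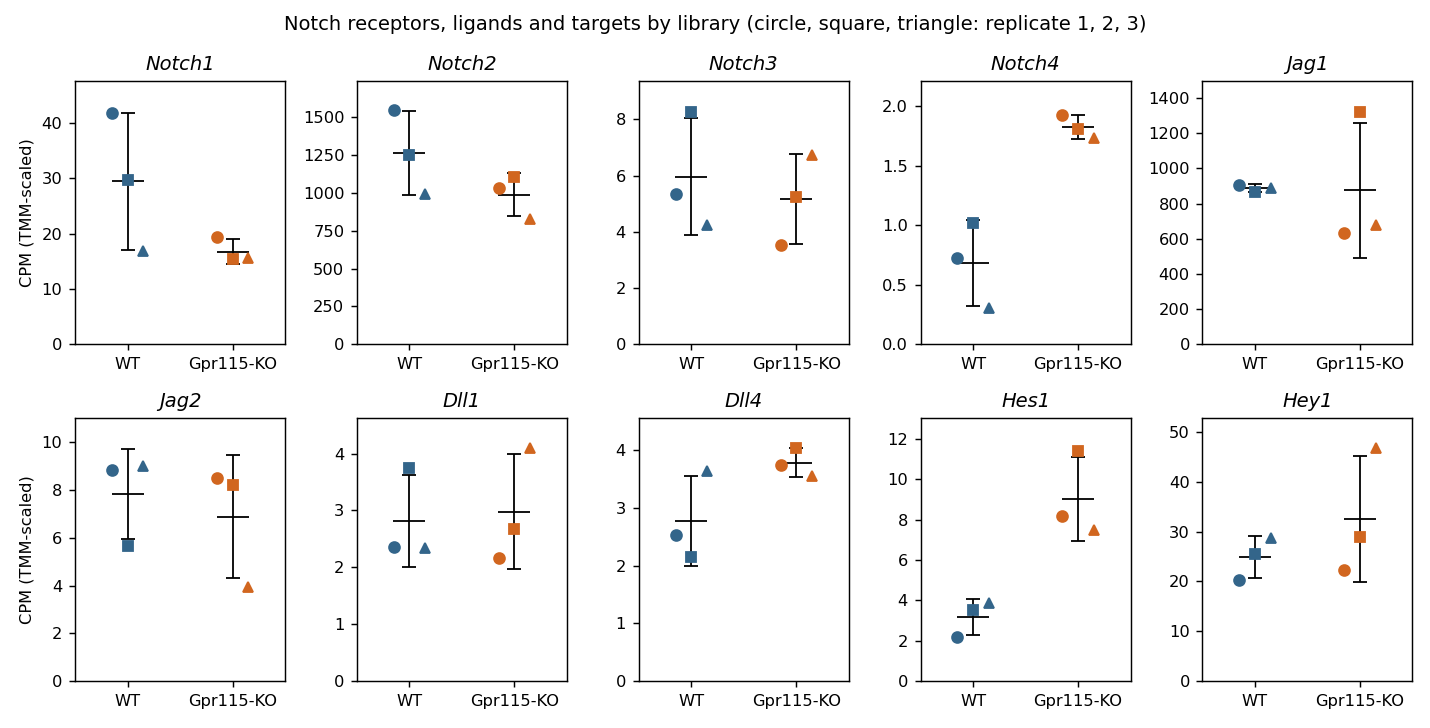
CPM of each gene in each library (circle, square and triangle for replicates 1, 2 and 3), with the mean and SD of each genotype as horizontal line and bars. The libraries of the genotypes separate for Hes1 and Notch4, and Jag1 has 1 Gpr115-KO library, replicate 2, far above the other 2.

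Among the receptors, Notch1 (ENSMUSG00000026923, GRCm38 chr2:26457903-26516663, minus strand) was at 41.8, 29.7 and 16.9 CPM in the WT libraries and at 19.3, 15.5 and 15.5 CPM in those of Gpr115-KO. The WT libraries spread widely and the lowest of them lay inside the Gpr115-KO range. The means were 29.5 ± 12.4 and 16.8 ± 2.22 CPM (SD, n = 3), and the difference was a log2 fold change of -0.82 (SE 0.288) by edgeR, at an adjusted p of 0.304. Its size depended on single WT libraries: without WT replicate 1 the log2 fold change was -0.47, and without WT replicate 3 it was -1.10. Without the count filter the adjusted p was 0.0157, the only setting of 18 that called Notch1. Of its exonic bases, 7.5% overlap 0610009E02Rik and 2.91% overlap Gm13568 on the opposite strand, whose reads this kit cannot separate.

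Markers of the stratum intermedium, where Notch1 is known, were read beside it. Their summed level overlapped, at 316 to 332 CPM in WT libraries and 273 to 342 CPM in those of Gpr115-KO, and 5 of the 6 had a log2 fold change above 0, with a median of 0.08. Alpl, the alkaline phosphatase of that layer and of other mineralizing cells, makes up most of the sum and was the 1 marker below 0 (-0.17), at 213, 195 and 196 CPM in the WT libraries and at 213, 150 and 174 CPM in those of Gpr115-KO. None of the 6 was at 0 in every library, and their part in the Notch1 value was not tested.

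Notch2 (ENSMUSG00000027878, chr3:98013527-98150361, plus strand) was at 1546, 1248 and 994 CPM in the WT libraries and at 1031, 1102 and 830 CPM in those of Gpr115-KO. The genotypes overlapped. Means were 1263 ± 276 and 988 ± 141 CPM, a log2 fold change of -0.35 (SE 0.216) by edgeR, at an adjusted p of 0.538. In both Notch1 and Notch2 WT replicate 1 was the highest library and replicate 3 the lowest of the WT libraries. Without WT replicate 1 the Notch2 value was -0.18.

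Notch3 (ENSMUSG00000038146, chr17:32120820-32166852, minus strand) was low, at 5.34, 8.27 and 4.26 CPM in the WT libraries and at 3.52, 5.22 and 6.75 CPM in those of Gpr115-KO, from 31 to 74 counts. The ranges nearly coincided, and the log2 fold change of -0.19 (SE 0.336) by edgeR, at an adjusted p of 0.855, turned to 0.11 without WT replicate 2. Markers of mural cells summed to 2880 to 8171 CPM over the WT libraries and to 2112 to 2902 CPM over those of Gpr115-KO, almost all of it Rgs5, with 4 of 9 genes above 0 and 5 below and 1, Rgs5, at an unadjusted p under 0.05.

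Notch4 (ENSMUSG00000015468, chr17:34564268-34588503, plus strand) was the scarcest receptor and was higher in every Gpr115-KO library. It had 8, 9 and 3 counts in the WT libraries, against 17, 17 and 19, or 20 against 53 in all. In CPM the WT libraries stood at 0.723, 1.02 and 0.304 and the Gpr115-KO libraries at 1.93, 1.81 and 1.73, with the lowest WT library at the 3-count floor. Means were 0.682 ± 0.360 and 1.82 ± 0.100 CPM, a log2 fold change of 1.41 (SE 0.510) by edgeR, at an adjusted p of 0.308. In the 15 alternatives that gave it an adjusted p the log2 fold change lay between 0.77 and 1.79, with adjusted p from 0.283 to 0.797. As a share of the receptors it took 0.0610%, 0.106% and 0.0401% over the WT libraries, against 0.245%, 0.216% and 0.272% over those of Gpr115-KO.

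Markers of endothelium, where Notch4 and Dll4 are known, overlapped between genotypes. Their summed level ran from 108 to 124 CPM over the WT libraries and from 99.3 to 120 CPM over the Gpr115-KO libraries, with 4 of 10 log2 fold changes above 0, 6 below, a median of -0.07 and none called or at an unadjusted p under 0.05. Blood cell markers summed to 167 to 181 CPM in WT and to 323, 413 and 192 CPM in Gpr115-KO replicates 1 to 3. Of the 9 tested, 7 were higher at an unadjusted p under 0.05 by edgeR, beside 12.3% of all genes in either direction. Ptprc (-0.23) and Csf1r (-0.13) had log2 fold changes below 0. The part of the blood cell markers in the Notch4 and Hes1 values was not tested. In replicate 3 the globin gene Hbb-bs was at 54.1 CPM, inside the WT range of 49.8 to 57.8 CPM. Mpo was at 6.56 CPM there, above the WT range of 2.26 to 3.14 CPM. Of the other tested markers, Hbb-bt (8.94 CPM), Slc4a1 (3.56) and S100a9 (1.91) also lay above their WT ranges in replicate 3. Hba-a1 (78.2 CPM), S100a8 (1.09), Ptprc (9.30) and Csf1r (28.5) lay inside theirs.

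Notch4 lies 8.09 Mb from Adgrf4 on chromosome 17, where 18 of 724 tested genes (2.49%) were called and 24.0% did not overlap between genotypes. Within 1 Mb of Notch4 there were 91 other tested genes, of which 5 (5.49%) were called and 33 (36.3%) did not overlap. The called ones were Prrc2a, higher by 1.93 on the log2 scale (adjusted p = 0.00443, edgeR), and 1110038B12Rik (-1.93, 0.0120), Vwa7 (-1.60, 0.0120), Sapcd1 (-1.61, 0.0126) and H2-D1 (-1.11, 0.0401), a class I histocompatibility gene. They start 386 to 698 kb from the start of Notch4. The other 2 genes of chromosome 17, Notch3 at 10.5 Mb and Dll1 at 27.3 Mb from Adgrf4, had no called gene within 1 Mb, among 24 and 12 tested neighbours, of which 5 (20.8%) and 6 (50%) did not overlap between genotypes. Whether the Notch4 value belongs with these neighbours was not tested.

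**Figure D3:**
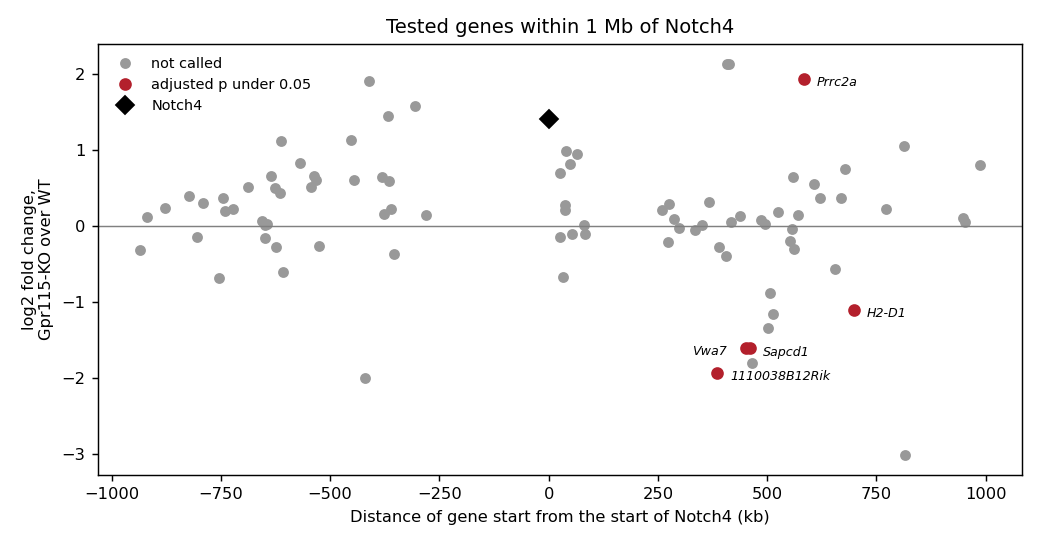
Log2 fold change (Gpr115-KO over WT) of each tested gene whose start lies within 1 Mb of the start of Notch4, by distance in kb. Red points are the 5 genes with an edgeR adjusted p under 0.05, and the black diamond is Notch4 at 1.41.

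Among the ligands, Jag1 (ENSMUSG00000027276, chr2:137081456-137116644, minus strand) was at 907, 863 and 890 CPM in the WT libraries and at 630, 1319 and 677 CPM in those of Gpr115-KO. The WT libraries lay close together and the Gpr115-KO libraries on both sides of them, so that the SD was 22.1 CPM around a WT mean of 887 and 385 CPM around a Gpr115-KO mean of 875. The log2 fold change was -0.02 (SE 0.271) by edgeR, at an adjusted p of 0.984, and without Gpr115-KO replicate 2 it was -0.44. That library also had the highest summed ameloblast, dental epithelium, skeletal muscle and blood cell markers (203024, 1967, 310 and 413 CPM). It had the lowest summed stratum intermedium, endothelial and mural cell markers (273, 99.3 and 2112 CPM). Its odontoblast and pulp sum (47650 CPM) and keratinizing oral epithelium sum (37.5 CPM) lay between those of other libraries. Single markers in it went both ways: Ambn was the highest of the 6 libraries at 140151 CPM, while Odam was the lowest at 1468 CPM, against 4569 to 7919 CPM in the others, and Epcam the lowest at 11.8 CPM. Their part in its Jag1 level was not tested.

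Jag2 (ENSMUSG00000002799, chr12:112907819-112929776, minus strand), the second Jagged ligand, was at 8.86, 5.67 and 9.02 CPM in the WT libraries and at 8.52, 8.21 and 3.92 CPM in those of Gpr115-KO. Its log2 fold change was -0.20 (SE 0.327) by edgeR, at an adjusted p of 0.844, and the genotypes overlapped. Dll1 (ENSMUSG00000014773, chr17:15367354-15376872, minus strand), a Delta-like ligand, was at 2.35, 3.74 and 2.33 CPM in the WT libraries and at 2.16, 2.66 and 4.10 CPM in those of Gpr115-KO. This was a difference of 0.10 on the log2 scale (SE 0.378, edgeR adjusted p = 0.939), and 20.5% of its exonic bases overlap A930024N18Rik on the other strand. Dll4 (ENSMUSG00000027314, chr2:119325784-119335962, plus strand), the Delta-like ligand of sprouting vessels, was at 2.53, 2.15 and 3.65 CPM in the WT libraries and at 3.75, 4.05 and 3.56 CPM in those of Gpr115-KO. This gave a log2 fold change of 0.44 (SE 0.326) by edgeR, at an adjusted p of 0.618, with 1 WT library above the lowest Gpr115-KO library.

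Of the targets, Hes1 (ENSMUSG00000022528, chr16:30064384-30067796, plus strand), a repressor that Notch activates directly in many tissues, had the lowest p of the 10 genes. It was at 2.17, 3.51 and 3.85 CPM in WT, from 24, 31 and 38 counts, and at 8.18, 11.4 and 7.48 CPM in Gpr115-KO, from 72, 107 and 82 counts. Every Gpr115-KO library was above every WT library. The means were 3.18 ± 0.889 and 9.02 ± 2.09 CPM (SD, n = 3), or 2.84-fold, with a log2 fold change of 1.51 (SE 0.305) by edgeR, at an adjusted p of 0.103. By p it ranked 72nd of the 16011 genes. The adjusted p was 0.00716 with DESeq2 and 0.000905 without the count filter, and over all 18 alternatives it ran from 0.000905 to 0.430 with the log2 fold change between 1.26 and 1.67. It was therefore not called by the test used here and was called under 2 of the alternatives.

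Hey1 (ENSMUSG00000040289, chr3:8663359-8667256, minus strand) was at 20.3, 25.5 and 28.8 CPM in the WT libraries and at 22.3, 28.9 and 46.8 CPM in those of Gpr115-KO. The genotypes overlapped, and the highest value, in Gpr115-KO replicate 3, carried most of the log2 fold change of 0.40 (SE 0.260) by edgeR, at an adjusted p of 0.572, which was 0.04 without that library. Hes1 and Hey1 were both above 0 in the same contrast, and the difference between their changes was not tested.

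**Figure D4:**
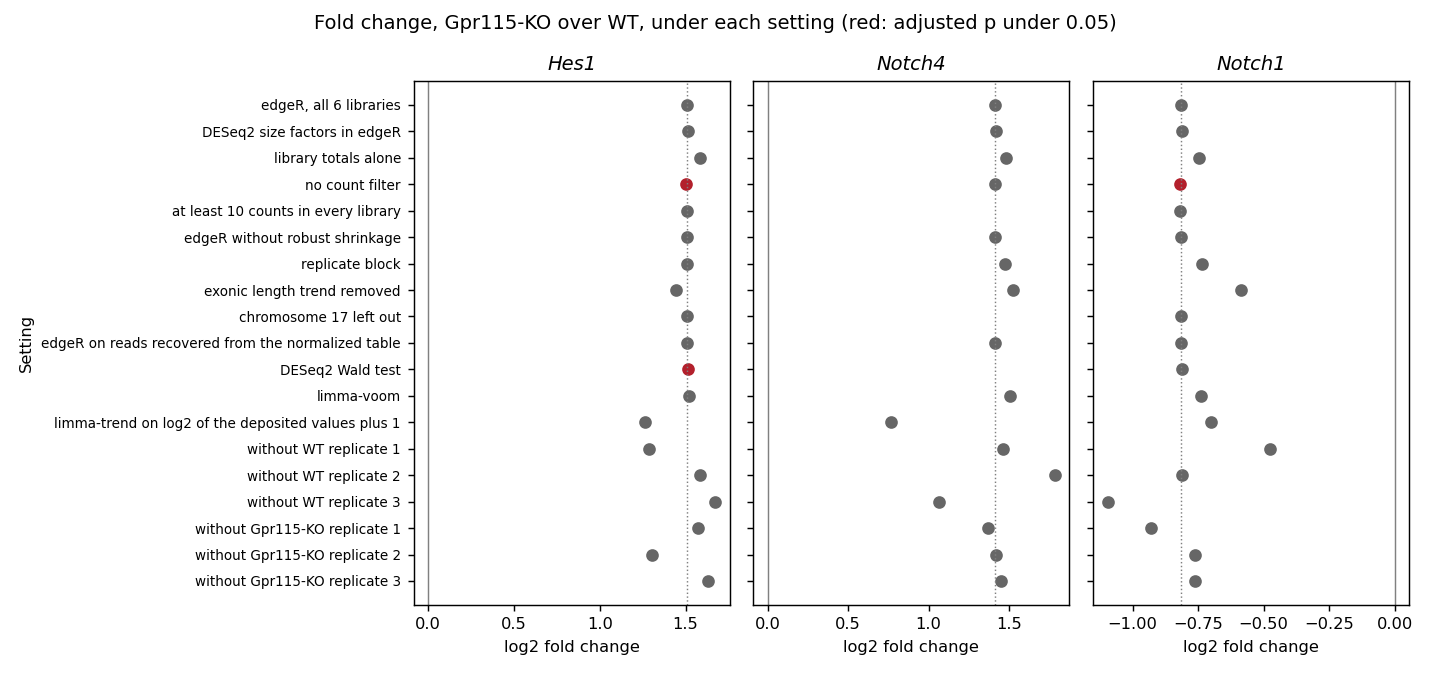
Log2 fold change of Hes1, Notch4 and Notch1 under each processing setting, with the value of the reported fit as a dotted line and adjusted p under 0.05 in red. Hes1 stays between 1.26 and 1.67 and Notch1 between -1.10 and -0.47; for Notch4 a setting with no point gave no adjusted p.

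The rest of the pathway was read from 45 other genes, of which 39 were tested. edgeR called 0 of the 39 at an adjusted p under 0.05, beside 0.15% of all genes, as did DESeq2 and both limma fits, and 5 had an unadjusted p under 0.05 (2 higher and 3 lower), beside 12.3%. Log2 fold changes lay above 0 for 18 and below for 21, with a median of -0.00. Libraries did not overlap for 9 genes (5 higher and 4 lower), where all genes gave 17.5%.

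Of the 10 processing and cleavage genes, 4 lay above 0 and 6 below. Psen2, a catalytic subunit of gamma-secretase, had the smallest p of these, at 20.9, 17.5 and 12.2 CPM in the WT libraries and at 12.04, 11.1 and 11.1 CPM in those of Gpr115-KO. All Gpr115-KO libraries were lower, with a log2 fold change of -0.56 (SE 0.227) by edgeR, at an adjusted p of 0.353. Adam10, an ADAM protease that cleaves the receptor after ligand binding, was abundant at 449 to 705 CPM over the 6 libraries, with a log2 fold change of -0.00. Of the 5 glycosylation genes, 3 lay above 0 and 2 below. Rfng, a Fringe glycosyltransferase that modifies Notch receptors, was at 7.23, 8.95 and 4.97 CPM in the WT libraries and at 9.88, 13.0 and 9.03 CPM in those of Gpr115-KO. Its Gpr115-KO libraries were all higher (a log2 fold change of 0.59 by edgeR, SE 0.270, at an adjusted p of 0.407). Pofut1, which adds O-fucose to Notch, had nearly the same p in the other direction, at 11.5, 11.9 and 12.7 CPM in the WT libraries and all lower in Gpr115-KO, at 6.25, 9.70 and 9.39 CPM (log2 fold change -0.50, SE 0.230).

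Among the genes of ligand and receptor endocytosis and turnover, 10 of 12 were tested, 4 above 0 and 6 below. Numbl, a relative of the Notch antagonist Numb, was at 0.633, 0.680 and 1.22 CPM in the WT libraries and at 3.07, 1.60 and 2.28 CPM in those of Gpr115-KO. All 3 Gpr115-KO libraries were above WT, with a log2 fold change of 1.44 (SE 0.477) by edgeR, at an adjusted p of 0.284. Like Notch4, it reached the minimum of the filter in 1 WT library and in all 3 Gpr115-KO libraries. Itch, a ubiquitin ligase that acts on Notch, was at 78.3, 84.8 and 80.7 CPM in the WT libraries and at 66.7, 44.4 and 59.4 CPM in those of Gpr115-KO, a log2 fold change of -0.52 (SE 0.171) by edgeR, at an adjusted p of 0.286. The Gpr115-KO libraries of Itch were all lower. Dtx4, a Deltex-family ubiquitin ligase, spread widely within both genotypes, from 5.06 to 28.2 CPM over the WT libraries and from 6.02 to 53.3 CPM over those of Gpr115-KO.

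In the nuclear complex, 4 of 9 genes lay above 0 and 5 below. Rbpj itself averaged 14.03 ± 2.93 CPM over the WT libraries (SD, n = 3), against 14.3 ± 1.87 CPM in Gpr115-KO, with a log2 fold change of 0.02. Maml2, a Mastermind co-activator, was at 462, 299 and 332 CPM in the WT libraries and at 248, 172 and 311 CPM in those of Gpr115-KO, overlapping by 1 library, with a log2 fold change of -0.58 (SE 0.243) by edgeR, at an adjusted p of 0.367. Among the other ligands, 1 of 3 was tested: Dlk1, a Delta-like protein that is an atypical ligand, with a log2 fold change of 0.02 (SE 0.343) by edgeR, at an adjusted p of 0.988. Of the 6 other targets, 4 were tested, 2 above 0 (Nrarp, and Hes6 at 0.17) and 2 below (Heyl at -0.33 and Hey2 at -0.05). Nrarp, a target that feeds back on Notch, was at 1.27, 2.27 and 2.43 CPM in the WT libraries and at 2.61, 5.65 and 3.19 CPM in those of Gpr115-KO, above WT in every library but with 79.4% of its exonic bases shared with the antisense gene Gm38287, whose reads cannot be separated (a log2 fold change of 0.95 by edgeR, SE 0.416, at an adjusted p of 0.391). The 6 untested genes, Neurl1a, Dtx1, Dll3, Dlk2, Hes5 and Hes7, had at most 9 counts in any library.

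**Figure D5:**
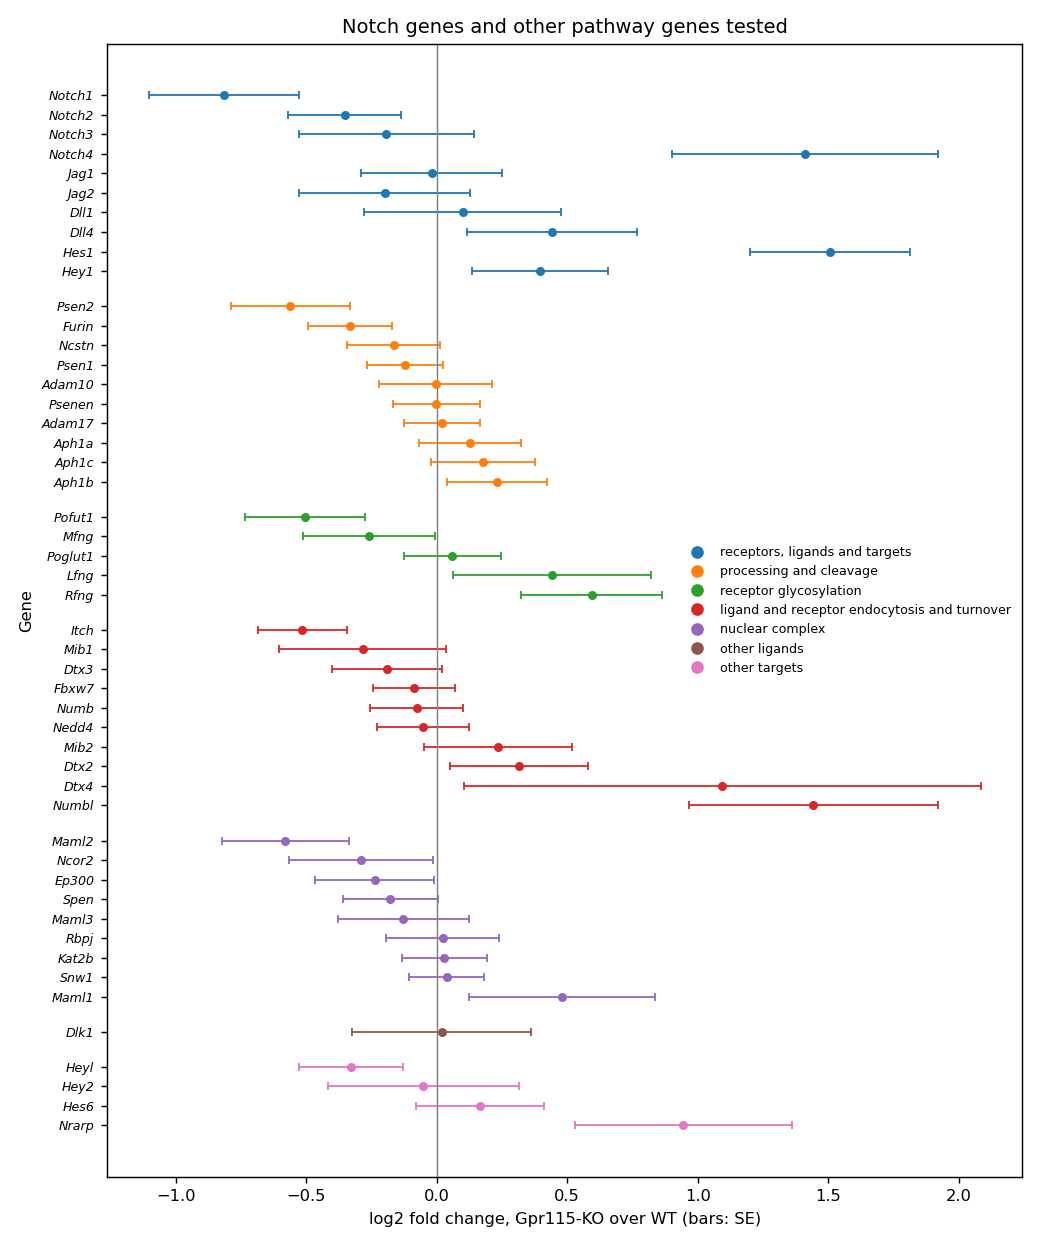
Log2 fold change (Gpr115-KO over WT) with SE for the 10 receptors, ligands and targets and for the 39 other tested pathway genes, coloured by role. Numbl at 1.44, Hes1 at 1.51 and Notch4 at 1.41 lie farthest to the right, with Dtx4 and Nrarp next, and none was called by edgeR.

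Genes whose profile over the 6 libraries came nearest to each receptor were found by the root mean square difference of centred log2 CPM, among 11415 tested genes of sufficient level. For Notch1 they were Nmnat3 (0.0837), Fgd4 (0.0964) and Tanc2 (0.108), against a median of 0.588 over all. For Notch2 they were Fam160b2 (0.0570), Sms (0.0640) and Tarbp1 (0.0710), against 0.377. For Notch3 they were Fam69b (0.0739), Fam110a (0.140) and Tmod2 (0.146), against 0.478. For Notch4 the nearest, Slfn2 (0.369), Arrdc2 (0.383) and Pcp4 (0.446), were much farther off, against a median of 0.987, at counts where sampling error is large. Among the 10 genes, the nearest to Notch1 was Notch2 (0.310), to Notch3 was Dll1 (0.187) and to Notch4 was Hes1 (0.688), over 6 libraries that share these 2 genotypes.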

How the data were processed

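RNA was made into libraries with a Nextera XT kit, which does not mark strand, and read on a HiSeq1500 as pairs of 150 nt, per the labels' protocols. Tools listed in the submitters' processing notes are limma, edgeR, DESeq2 and STAR 2.5.2a, with the build GRCm38 (mm10). How reads were counted is not stated in these sources. Raw counts were deposited by the authors for 48709 gene rows and 15 transgene rows (at most 8 counts per library), which were left out. The values of the deposited normalized table are a signal, TMM-scaled CPM, and 1 factor per column turned 100% of them into whole reads (within 0.01) equal to those counts. Coordinates, overlaps and exonic lengths are from GENCODE vM21, promoters from RefSeq.

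The counts went into edgeR 4.0.16 (R 4.3.3): filterByExpr (minimum count 10, total 15), TMM, a robust quasi-likelihood fit on genotype, a two-sided F test and Benjamini-Hochberg adjustment over 16011 genes, called at 0.05. Each SE was the size of the log2 fold change over the root of its F statistic. Replicates were compared by chi-square per degree of freedom (16.5 to 69.4 within a genotype, 16.1 to 89.2 across), so none was a repeat of another. Alternatives used DESeq2 1.42.0, limma 3.58.1 and the settings in the closing section. Levels per kilobase use the union of exons.

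The genes and lists were chosen with earlier results of these data known. Named were the 10 genes, the gene of smallest p in each pathway role, the 3 nearest profiles of each receptor, called genes within 1 Mb of those on chromosome 17, and Adgrf4. Amelx, Alpl, Ambn, Odam, Epcam, Adam10, Pofut1, Itch, Dtx4, Rbpj, Hes6, Hey2, Heyl and the single mural and blood cell markers were named after their values were seen. The marker lists cover stratum intermedium, ameloblasts, dental epithelium, odontoblasts and pulp, endothelium, mural cells, skeletal muscle, keratinizing oral epithelium and blood.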

Additional observations from a re-analysis of the deposited data

How the results depend on the processing

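edgeR called 24 genes among all those tested. That count was 500 without the count filter, 237 with DESeq2, 72 with a replicate block, 2 with chromosome 17 left out, and 14 to 48 when each library was left out in turn (14 without WT replicate 1, 48 without Gpr115-KO replicate 1). Of the 10 genes, 2 were called without the count filter (Hes1 and Notch1) and 1 with DESeq2 (Hes1). The count was 0 under every other alternative run, and 0 of the other pathway genes were called under any. Whether the replicate numbers pair the libraries cannot be settled from 6 libraries. Same-numbered deviations correlated at 0.27, 0.03 and -0.07, and only replicate 1 matched its own number best. With the replicate block Hes1 had an adjusted p of 0.0708. Fold changes near 0 changed sign. The log2 fold change of Jag1 was 0.0386 with library totals alone, 0.0625 with the exonic length trend removed, and from -0.44 to 0.17 over the left-out libraries. In the same way Notch3 ran from -0.44 to 0.11, Jag2 from -0.39 to 0.0873, Dll1 from -0.21 to 0.35 and Dlk1 from -0.11 to 0.15. The cause of each change was not tested. Notch4 got no value with chromosome 17 left out or with at least 10 counts in every library, and no adjusted p from DESeq2. Differences in Notch4, Dll1, Dll4, Notch3 and Hes1 (24, 31 and 38 counts in the WT libraries) are limited by their low counts.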

Other observations

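Dlk2, an atypical Notch ligand gene that was too low to be tested, had 6, 5 and 5 counts in the WT libraries and 2, 2 and 2, under the floor of 3 counts, in the Gpr115-KO libraries. It lies on chromosome 17, 3.64 Mb from Adgrf4. Rgs5, a mural cell gene, was at 8053, 2781 and 5390 CPM in WT and at 2753, 2022 and 2787 CPM in Gpr115-KO, a log2 fold change of -1.10 (SE 0.345) by edgeR, at an adjusted p of 0.268. Rgs5 was named after its values were seen, and its level lay far above that of the other mural markers. Pdgfrb, for one, was at 7.35 to 19.3 CPM over the 6 libraries. Of the 9 mural markers, 4 (Tagln, Cnn1, Kcnj8 and Abcc9) had a log2 fold change above 0 and 5 below. Those below were Rgs5, Myh11 (-1.01, SE 0.539), Acta2 (-0.34), Pdgfrb (-0.29) and Cspg4 (-0.17). Keratinizing oral epithelium markers summed to 36.4 to 141 CPM in WT and 37.5 to 282 CPM in Gpr115-KO, and skeletal muscle markers to 48.8 to 73.8 and 30.5 to 310 CPM. All 9 skeletal muscle markers had log2 fold changes above 0, with none called, and 1 library carried this: their sum was 310 CPM in Gpr115-KO replicate 2, but 30.5 CPM in replicate 1, below every WT library, and 79.0 CPM in replicate 3.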
